A study of Homo sapiens with 6 samples.

Results

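The steroid hormone receptor genes examined here were NR3C1, the glucocorticoid receptor, NR3C2, the mineralocorticoid receptor, PGR, the progesterone receptor, and ESR1 and ESR2, the estrogen receptors alpha and beta. They were taken by gene symbol, 5 of the 26255 genes in the deposited table. RNA was sequenced from 22RV1 cells, an established human cell line of castration-resistant prostate cancer (CRPC), grown in RPMI medium with fetal bovine serum. The BCT group (3 samples) received 10 nM bruceantin (BCT), a quassinoid, for 24 h, and the DMSO group (3 samples) received the vehicle for the same time. No label names a steroid added to either group, so the hormones present were those of the serum. Nothing in the labels says that the samples of a group were separate cultures, so p-values measure the spread between these samples, which may be technical, and all of them are of a single cell line.

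Steroid receptors are ligand-activated transcription factors of the nuclear receptor superfamily. Without hormone, the corticosteroid and progesterone receptors are held in complexes with HSP90, HSP70, p23 and immunophilin cochaperones such as FKBP4 and FKBP5, and on binding hormone they are released to bind DNA in the nucleus. The glucocorticoid, mineralocorticoid and progesterone receptors recognise the same kind of palindromic response element as the androgen receptor. The glucocorticoid receptor is known in prostate cancer as a receptor that can take over part of the androgen-regulated program when androgen signaling is blocked, and estrogen receptor beta is known as the main estrogen receptor of prostate epithelium.

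The 2 receptors above 1 FPKM in these cells, NR3C1 and NR3C2, both lie on the minus strand of hg19. NR3C1 lies at chr5:142657496-142815077 and NR3C2 at chr4:148999915-149363672 in the authors' annotation, and the main transcript of each has 9 exons in GENCODE. RefSeq (GRCh38.p14) lists 7 transcript starts for NR3C1 and 4 for NR3C2. The 250 bases before a start are shown for 3 of them, taken from the windows that overlap no annotated exon. Such windows numbered 2 for NR3C1, both shown, and 3 for NR3C2, of which 1 is shown. This NR3C2 window adjoins the end of the gene in GENCODE, chr4:149365850, and lies outside the interval of the authors' annotation. The 3 windows allow an AT-rich start and another start of the gene that rose most to be seen beside 1 of NR3C2. Each matched hg19 once, is given 5′ to 3′ on the strand of the gene, and has in capitals the motif matches described below.
NR3C1, proximal start, chr5:142784921-142785170: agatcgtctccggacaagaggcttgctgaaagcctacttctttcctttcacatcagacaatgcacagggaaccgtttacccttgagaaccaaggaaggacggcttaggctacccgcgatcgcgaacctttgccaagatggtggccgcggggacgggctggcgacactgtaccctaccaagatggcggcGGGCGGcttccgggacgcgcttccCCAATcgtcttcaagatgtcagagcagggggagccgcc
NR3C1, distal start, chr5:142815078-142815327: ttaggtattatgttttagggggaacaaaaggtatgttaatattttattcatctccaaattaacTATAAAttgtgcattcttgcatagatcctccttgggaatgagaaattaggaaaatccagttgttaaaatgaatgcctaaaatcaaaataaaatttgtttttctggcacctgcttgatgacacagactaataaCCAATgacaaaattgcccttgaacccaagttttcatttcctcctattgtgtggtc
NR3C2, chr4:149365851-149366100: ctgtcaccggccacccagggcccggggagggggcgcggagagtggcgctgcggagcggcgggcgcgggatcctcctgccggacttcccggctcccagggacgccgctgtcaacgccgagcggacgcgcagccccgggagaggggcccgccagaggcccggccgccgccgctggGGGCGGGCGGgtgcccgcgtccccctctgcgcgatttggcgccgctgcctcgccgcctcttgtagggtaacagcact

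The proximal NR3C1 window had 59.6% GC and 20 CpG dinucleotides, with a GC box (GGGCGG) and a CCAAT box (CCAAT). Its GC content was near the median of 58.0% over all windows, and the 7 NR3C1 windows ranged from 32.8% to 82.0%. The distal NR3C1 window had 32.8% GC and 0 CpG dinucleotides, with a TATA box (TATAAA) and a CCAAT box. The NR3C2 window had 78.4% GC and 35 CpG dinucleotides, and its 2 GC box matches overlap each other. All 8 motifs were searched on both strands, and FPKM values of a gene do not tell which start was used. A GC box was present in 5 of 7 windows of NR3C1, 4 of 4 of NR3C2, 3 of 3 of PGR, 2 of 6 of ESR1 and 2 of 5 of ESR2, against 42.6% of 35116 windows of all genes. Some windows of NR3C2, PGR and ESR2 overlap one another, so a match can be counted in more than 1 window. The E-box given below for ESR2 is 1 site in 2 overlapping windows. A CCAAT box was in 32.0% of all windows and a TATA box in 10.7%. The full glucocorticoid response element (GNACANNNTGTNC) was in 0.3% of all windows and in 0 of these 25. Its half-site (AGAACA), which can overlap it, was in 12.4% of all windows and in 1 of ESR1. The AP-1 site (TGANTCA) was in 6.6% of all windows and 1 of NR3C1, the E-box (CACGTG) in 6.3% and 2 of ESR2, and the cAMP response element (TGACGTCA) in 1.6% and 0 of the 25.

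In FPKM, a fragment number scaled to transcript length and sequencing depth, the 5 receptors fell into those near or above 4 and those below 1 FPKM. NR3C1 and NR3C2 were at similar levels with DMSO. With BCT, NR3C1 mRNA rose 4.76-fold, NR3C2 mRNA was 1.47-fold higher, and PGR, ESR1 and ESR2 stayed below 0.3 FPKM in every sample.

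NR3C1 was listed at 4.367, 3.94 and 4.105 FPKM in the DMSO samples, and at 17.632, 19.881 and 21.575 FPKM in the BCT samples. All 3 BCT samples were above all 3 DMSO samples, with group means of 4.14 ± 0.215 and 19.7 ± 1.98 FPKM (SD, n = 3 each). On the log2(FPKM + 0.1) scale the difference was 2.22 (standard error 0.083, 95% interval 2.03 to 2.41, limma, adjusted p = 3.9e-07 by Benjamini-Hochberg over 12729 genes). Calls required a log2 fold change beyond 0.85 in either direction together with an FDR under 0.05. By this rule 31.6% of all tested genes were called, 13.9% higher and 17.8% lower, so a call by itself does not set NR3C1 apart. The split was 1764 higher and 2263 lower, and it became 5614 and 668 when samples were rescaled to equal FPKM sums, or 3370 and 1208 when the gene with the largest FPKM was left out of the sums. A rise as large as that of NR3C1 was less common, as 199 of the tested genes (1.56%) had a larger log2 fold change. Genes that fell by more, such as KLF15 at -2.65, are not in this count. By the exact two-sided permutation test of 3 samples against 3, p was 0.1, the smallest value that this design allows. NR3C1 was called under every alternative processing, at 2.01 to 2.98. In the deposited annotation NR3C1 shares its interval with no other gene.

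NR3C2 stood at 3.582, 4.009 and 3.965 FPKM in the DMSO samples and 5.187, 5.763 and 5.997 FPKM in the BCT samples. The groups did not overlap here either, as in 85.3% of all tested genes. The means were 3.85 ± 0.235 and 5.65 ± 0.417 FPKM (SD, n = 3 each). The log2 fold change was 0.54 (standard error 0.083, 95% interval 0.35 to 0.73, adjusted p = 0.00032 from limma). NR3C2 passed the FDR, which 82.1% of tested genes passed, but not the fold threshold, and it was not called. It was called when the samples were rescaled to equal FPKM sums, at 1.29, and when the gene with the largest FPKM was left out of those sums, at 0.92. Those scalings moved the median of all tested genes from -0.038 to 0.72 and 0.344, so that NR3C2 lay 0.57 to 0.58 above the median in each case. 

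The FPKM sums themselves differed between the groups, at 1169649 to 1572321 with DMSO and 757534 to 799838 with BCT. A single small RNA gene, MIR6087, made up 43.5% to 55.3% of the sum with DMSO and 31.7% to 32.5% with BCT. The read number behind each value is not known here, as the study states only an average per sample, but the most common ratio between low values gave relative depths of 0.878 to 1.0 with DMSO and 1.05 to 1.13 with BCT. Bulk RNA values such as these cannot tell a change in RNA per cell from a change in the mix of cells.

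A ratio between receptors in the same sample does not depend on how that sample was scaled. NR3C1 was at 1.22, 0.98 and 1.04 times the FPKM of NR3C2 in the DMSO samples and at 3.40, 3.45 and 3.60 times in the BCT samples. The log2 ratio rose by 1.70, from 0.10 ± 0.162 to 1.80 ± 0.0425 (SD, n = 3 each; exact two-sided permutation p = 0.1, the smallest possible). NR3C1 therefore increased more than NR3C2 in every comparison of a BCT with a DMSO sample. Of the summed FPKM of the 5 receptors, NR3C1 took 53.8%, 48.8% and 49.3% with DMSO and 76.7%, 76.8% and 77.6% with BCT. Its share was 50.6% ± 2.75 with DMSO and 77.0% ± 0.473 with BCT (SD, n = 3 each), 26.4 percentage points higher (exact permutation p = 0.1). NR3C2 took 44.1% to 49.7% of the sum with DMSO and 21.6% to 22.6% with BCT, although its own FPKM was higher with BCT. The sum itself went from 8.17 ± 0.137 to 25.6 ± 2.43 FPKM (SD, n = 3 each).

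**Figure D1:**
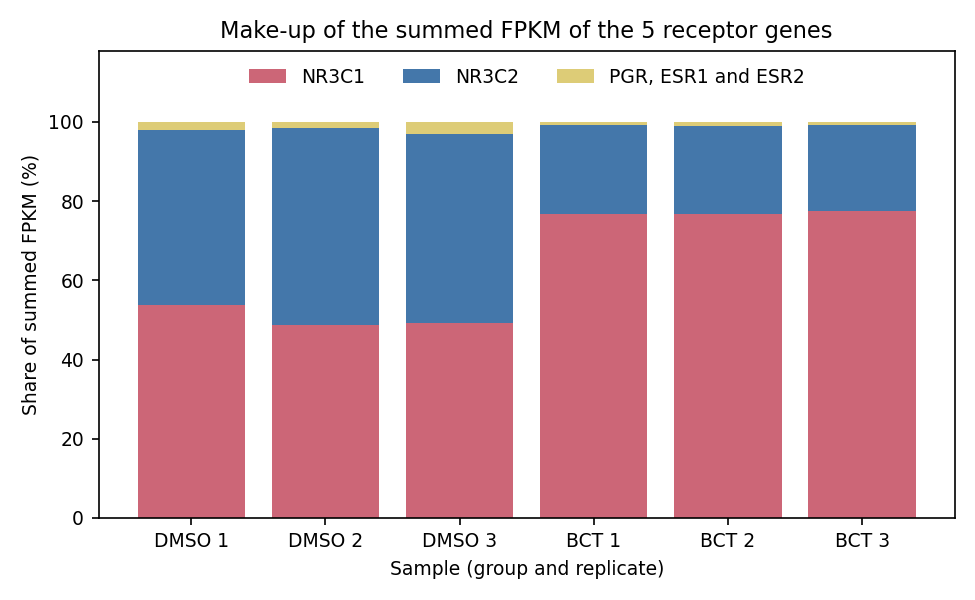
Share of the summed FPKM of the 5 receptor genes (percent) taken by NR3C1, by NR3C2 and by PGR, ESR1 and ESR2 together, with one stacked bar for each sample. NR3C1 made up 48.8% to 53.8% in the DMSO samples and 76.7% to 77.6% in the BCT samples.

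The other 3 receptors were too low for the main test, which needed a mean of at least 1 FPKM. ESR2 values were 0.143, 0.11 and 0.244 FPKM in DMSO samples, against 0.129, 0.157 and 0.175 FPKM in BCT samples. The groups overlapped, and the difference was -0.04 on the log2(FPKM + 0.1) scale (exact permutation p = 0.9). When all 21543 genes listed above 0 were fitted, its 95% interval was -0.51 to 0.44, so an increase or decrease within these bounds was not detectable. The interval listed for ESR2, chr14:64319683-65007086, is that of a merged locus and is shared by 10 genes, against chr14:64550950-64804830 in GENCODE. Neighbours listed with that interval moved in their own ways, with MTHFD1, a folate enzyme, at 60.2 to 65.625 FPKM with DMSO and 19.165 to 25.012 with BCT.

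PGR values were 0.004, 0.005 and 0.008 FPKM in DMSO samples, against 0.030, 0.032 and 0.034 FPKM in BCT samples. The groups did not overlap, but every value was under 0.04 FPKM and no fold is drawn from them. On the log2(FPKM + 0.1) scale the difference was 0.32 in the fit without a filter (95% interval 0.14 to 0.50, limma adjusted p = 0.0087), below the fold threshold, and it was 0.04 with a pseudocount of 1 and 1.43 with 0.01. PGR-AS1, listed under an older identifier with the same interval as PGR, has an exon on the opposite strand that overlaps PGR. The library kit does not mark strand, so reads of the pair cannot be told apart where they overlap. PGR-AS1 was at 0 to 0.024 FPKM with DMSO and at 0.021 to 0.043 FPKM with BCT, as low as PGR.

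For ESR1 the DMSO samples gave 0.020, 0.005 and 0.005 FPKM, and the BCT samples 0.004, 0.058 and 0.032 FPKM. One BCT sample was below all DMSO samples and the other 2 were above them, so the groups overlapped. The difference of 0.24 on the log2(FPKM + 0.1) scale did not pass either test (exact permutation p = 0.4; limma adjusted p = 0.25 without a filter, 95% interval -0.14 to 0.62).

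In order of level, NR3C1 and NR3C2 came first with DMSO and their ranges overlapped, then ESR2, then ESR1 and PGR, whose ranges also overlapped. With BCT, NR3C1 stood clear of NR3C2 and NR3C2 of ESR2, while PGR and ESR1, the lowest, overlapped. Among 47 nuclear receptors ranked by FPKM within a sample, NR3C1 went from rank 18 or 19 in the DMSO samples to rank 9 in all 3 BCT samples. NR3C2 stayed at rank 18 or 19 throughout. ESR2 ranked 34 to 37, and PGR and ESR1 ranked 40 to 46. Over all 26255 listed genes, the mean of NR3C1 was above that of 63.2% of genes with DMSO and of 82.7% with BCT. For NR3C2 these values were 62.4% and 66.5%.

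Of 42 other nuclear receptors, 29 passed the filter, with 9 called higher, 4 called lower and 16 not called, and a median log2 fold change of 0.25 beside -0.038 for all tested genes. The calls in this list and those below stand beside 13.9% called higher and 17.8% called lower over all tested genes. Among the 31 receptors tested, NR3C1 stood at 4 and NR3C2 at 14 in order of log2 fold change. NR4A3, an orphan receptor induced early by many stimuli, rose from 0.183 ± 0.0373 to 9.62 ± 2.0 FPKM (SD, n = 3 each), by 5.09 on the log2 scale. Its relative NR4A2 rose by 2.97. NR5A2, an orphan receptor known in bile acid and cholesterol metabolism, rose by 2.71. NR4A3, NR4A2 and NR5A2 were below 1 FPKM in every DMSO sample and passed the filter only through the BCT samples. The receptors that fell most were THRA, a thyroid hormone receptor, at -2.31, PPARA, a fatty acid sensor, at -2.22, and RARB, a retinoic acid receptor, at -2.19. PPARA and RARB were below 1 FPKM in every BCT sample and passed the filter only through the DMSO samples. The 95% intervals of NR3C1 (2.03 to 2.41) and NR5A2 (2.35 to 3.06) overlapped, and the difference between these genes was not tested. The nearest relatives of the estrogen receptors, ESRRA, ESRRB and ESRRG, bind no estrogen, and only ESRRA was tested. It went from 61.3 ± 2.42 to 37.1 ± 3.40 FPKM (SD, n = 3 each). Its log2 fold change of -0.73 passed the FDR (limma adjusted p = 2.3e-05) but not the fold threshold and turned to 0.04 with equal FPKM sums.

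**Figure D2:**
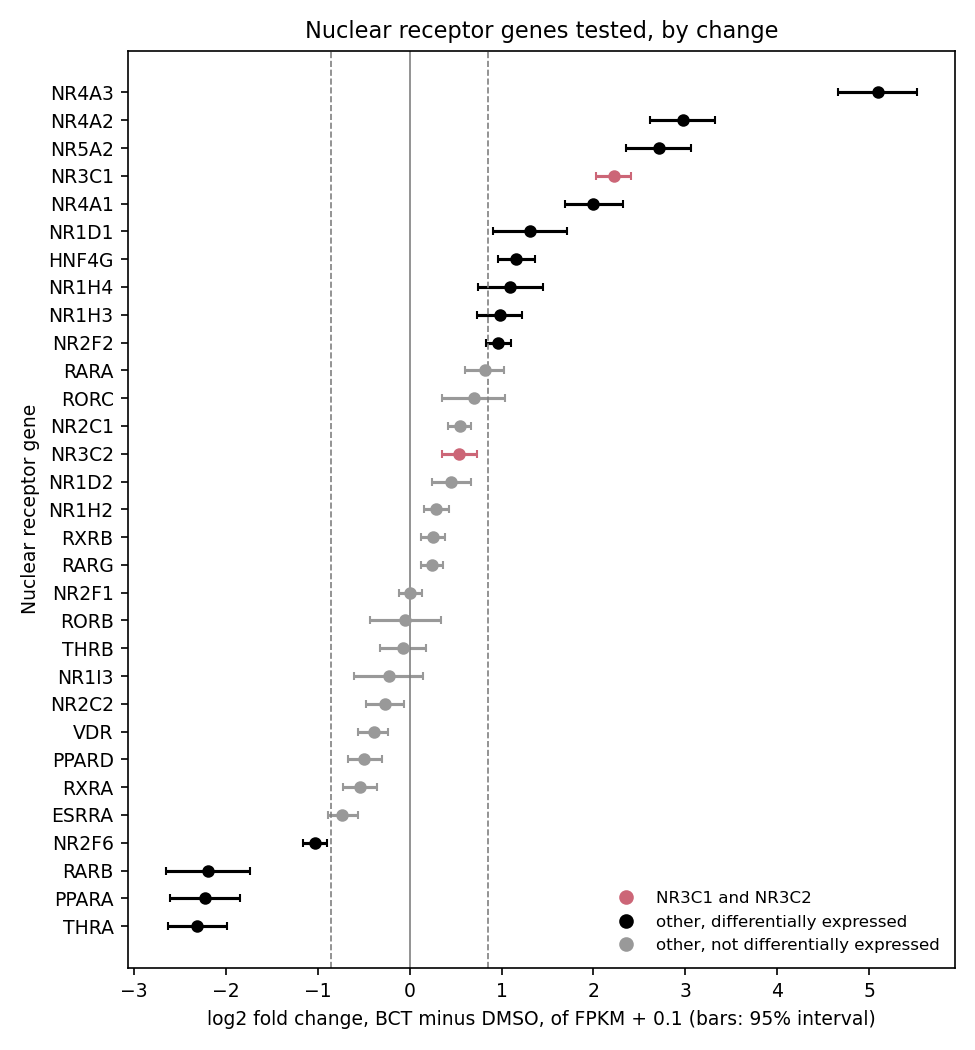
Log2 fold change (BCT minus DMSO) with its 95% interval for the 31 nuclear receptor genes tested, ordered by change; dashed lines mark the fold threshold of 0.85 in each direction. NR3C1 at 2.22 lies between NR5A2 at 2.71 and NR4A1 at 2.0, and NR3C2 at 0.54 lies inside the threshold.

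A further list, of membrane receptors for steroids, also held relatives of such receptors, not all of them membrane proteins or established steroid receptors. Over all tested genes 13.9% were called higher and 17.8% lower, and 82.1% passed the FDR alone. Of the 11 genes in this list, 7 were tested, 3 were called lower and 0 were called higher by limma (0 higher and 5 lower at an unadjusted p under 0.05). Those called were NENF, a secreted relative of the heme-binding PGRMC proteins, at -1.42, PGRMC1, the first member of that family, at -1.10, and PAQR4, of the progestin and adipoQ receptor family, at -0.98. With equal FPKM sums none of the 3 was called, and the list median of -0.36 became 0.39. PGRMC1 (-0.72) and PAQR4 (-0.6) also lost their calls without the largest gene in the sums. PAQR4 lost it too after correction for GC content and length (-0.63) and in a test against the fold threshold. PAQR8, of the same family as PAQR4, was too low for the main test. Its DMSO samples lay at 1.454, 1.625 and 1.446 FPKM, and its BCT samples at 0.114, 0.097 and 0.058 FPKM. Its difference of -3.09 on the log2(FPKM + 0.1) scale was larger in size than that of any called gene of the list. When a mean of 0.1 FPKM sufficed, 10 genes of the list were tested and 4 were called lower. PAQR8 stands outside the rule for named genes and was picked once its values were known.

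All 21 genes of the receptor chaperone machinery were tested. Over all tested genes 13.9% were called higher and 17.8% lower, and 82.1% passed the FDR alone, so low p-values were common throughout. Of the 21 genes, 5 were called lower, 0 higher and 16 neither by limma (6 higher and 12 lower at an unadjusted p under 0.05). The median log2 fold change was -0.36. FKBP5, an immunophilin that lowers the hormone affinity of the glucocorticoid receptor and is itself induced by glucocorticoids and androgens, was at 164.322, 159.911 and 161.745 FPKM with DMSO and 68.533, 61.859 and 60.293 FPKM with BCT. Its groups did not overlap, and it fell by 1.35 on the log2 scale (standard error 0.058, limma adjusted p = 6.3e-07). FKBP4, the immunophilin that favours transport of the receptor to the nucleus, fell by 0.99, from 178.0 ± 0.347 to 89.4 ± 7.32 FPKM (SD, n = 3 each). FKBP4 lost its call with quantile normalization (-0.75), with equal FPKM sums (-0.22), without the largest gene in the sums (-0.61) and in a test against the fold threshold, and FKBP5 lost it with equal FPKM sums (-0.58). The constitutive HSP70 gene HSPA8 fell by 1.63, with a spread of 134.0 FPKM (SD) around its BCT mean of 346.0.

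The inducible HSP70 genes HSPA1A and HSPA1B were called at -0.95 and -0.96, but they are near-identical copies whose reads may be split between them, and each lost its call after correction for GC content and length. HSPA1A also lost its call without BCT replicate 3, at -0.79. The HSP90 genes did not pass the fold threshold, with HSP90AA1 at -0.71 and HSP90AB1 at -0.76, and both were just above 0 with equal FPKM sums. Their cochaperones AHSA1, which activates the HSP90 ATPase, and ST13, the HSP70-interacting protein, were at -0.81 and -0.72. PTGES3, which encodes p23, was at -0.48, the phosphatase PPP5C at -0.36, and the DNAJ proteins DNAJA1 and DNAJB1 at -0.23 and -0.13. Values above 0 were found for TTC4 (0.81), HSPA4 (0.74), BAG1 (0.49), DNAJA2 (0.44), CDC37 (0.33), STIP1 (0.12), PPID (0.05) and STUB1 (0.01), none of which was called. These small differences depend on the scaling: with equal FPKM sums the list median was 0.41, with 6 genes called higher and 1, HSPA8, still called lower, and without MIR6087 in the sums it was 0.03, with 3 higher and 2 lower.

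Of 19 receptor coactivators, 18 were tested, with 6 called higher, 1 called lower and a median of 0.57. With equal FPKM sums there were 13 higher and 0 lower with a median of 1.34, and without the largest gene in the sums 10 and 0 with 0.96. The acetyltransferases CREBBP and EP300 rose by 1.64 and 1.60. CREBBP went from 6.718, 7.826 and 7.527 FPKM in the DMSO samples to 20.86, 23.803 and 24.83 FPKM in the BCT samples. SRA1, known for an RNA that acts as a steroid receptor coactivator, rose by 1.59, from 22.4 ± 0.228 to 67.9 ± 5.29 FPKM (SD, n = 3 each). PPARGC1B was called lower at -0.96. It lost that call with a pseudocount of 1 (-0.62), with equal FPKM sums (-0.24) and without the largest gene in the sums (-0.59). The same happened in a test against the fold threshold. Of 15 corepressors, all tested, 3 were called higher and 1 lower, with a median of 0.06. With equal FPKM sums 7 were higher and 0 lower with a median of 0.83, and without the largest gene in the sums 6 and 0 with 0.45. GPS2, a subunit of the NCOR complex, LCOR, a ligand-dependent corepressor, and SAFB2, known as an estrogen receptor corepressor, rose by 1.72, 1.33 and 1.16. The histone deacetylase HDAC1 fell by 0.93. It lost its call with quantile normalization (-0.64), with equal FPKM sums (-0.16) and without the largest gene in the sums (-0.54). The call was also lost after correction for GC content and length (-0.84) and in a test against the fold threshold.

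Of 22 enzymes that convert corticosteroids, progesterone or estrogens, 14 were tested, with 1 called higher and 4 called lower and a median of -0.39. The balance turned to 4 higher and 0 lower with equal FPKM sums, and to 3 and 2 without the largest gene in the sums. HSD11B1, which regenerates active cortisol, was listed at 0 in all 6 samples. HSD11B2, which inactivates cortisol and protects the mineralocorticoid receptor from it, was at 7.47 FPKM with DMSO and 5.73 FPKM with BCT in overlapping groups (log2 fold change -0.40, limma adjusted p = 0.03), so it was not called. It stands outside the rule for named genes and was chosen after its values were seen, as was HSD11B1. SRD5A1, a steroid 5-alpha-reductase, fell by 1.29. HSD17B7, an enzyme of estradiol and cholesterol synthesis, fell by 1.24. H6PD, which supplies the NADPH that HSD11B1 uses, fell by 0.99. With equal FPKM sums these 3 lost their calls, at -0.54 for SRD5A1, -0.47 for HSD17B7 and -0.24 for H6PD, and H6PD also lost it with a pseudocount of 1, at -0.82, and without the largest gene in the sums, at -0.61. CYP1A1, which hydroxylates estrogens, rose by 2.17, from 1.62 ± 0.0966 to 7.72 ± 1.49 FPKM (SD, n = 3 each).

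Genes known to be induced by a steroid receptor were described list by list, beside the 13.9% of all tested genes called higher and 17.8% called lower. Of 32 glucocorticoid-induced genes, 27 were tested, 13 were called higher, 5 lower and 9 neither, and the median was 0.71. Leaving out the genes that stand in another list, 11 of 22 were called higher and 4 lower, with a median of 0.89. With equal FPKM sums the whole list had 18 higher and 2 lower with a median of 1.46. Without the largest gene in the sums it had 15 and 4 with 1.09. DUSP1, a MAP kinase phosphatase, went from 9.318, 7.95 and 9.913 FPKM in the DMSO samples to 53.653, 63.722 and 57.546 FPKM in the BCT samples, a rise of 2.68. BIRC3, an inhibitor of apoptosis protein, and SGK1, a kinase that raises sodium transport, rose by 2.74 and 2.51 from below 1 FPKM. Both passed the filter only through their BCT samples. Other called genes that rose were ERRFI1, an inhibitor of EGFR, by 2.48, ZFP36, an mRNA decay factor, by 2.21, PER1, a clock gene, by 1.49, and MT2A, a metallothionein, by 1.27. The rule for named genes does not cover ERRFI1, ZFP36 or MT2A, which were picked once their values had been seen.

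In the same list 8 tested genes had a log2 fold change below 0, and 5 of them were called lower. KLF15, a transcription factor of glucocorticoid-driven metabolism, was called lower with a fall of 2.65. It went from 9.718, 9.086 and 11.248 FPKM in the DMSO samples to 1.864, 1.184 and 1.551 FPKM in the BCT samples. ZBTB16, a zinc finger factor also induced by androgens, fell from 15.1 ± 0.663 to 4.06 ± 0.667 FPKM (SD, n = 3 each), by 1.89. CDKN1C, a cell cycle inhibitor, fell by 1.40, with no call under equal FPKM sums (-0.67), and FKBP5 by 1.35, as given above. TSC22D3, which encodes the glucocorticoid-induced leucine zipper, was at 12.898 to 14.736 FPKM with DMSO and 18.368 to 18.703 FPKM with BCT, a log2 fold change of 0.44 that was not called. It falls outside the rule for named genes and was chosen after its values were seen. The list thus held genes called in both directions while NR3C1 mRNA was 4.76-fold higher. The paper reports the opposite direction for the protein, with less glucocorticoid receptor in CRPC cells given BCT. Protein was not measured in the samples used here, and its relation to these genes was not tested. Many genes of the list, risers and fallers alike, also respond to other signals, such as stress or serum for DUSP1 and androgens for FKBP5.

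Of 14 mineralocorticoid-induced transport genes, 9 were tested, with 4 called higher and 1 lower and a median of 0.85. With equal FPKM sums 7 were higher and 0 lower with a median of 1.61, and without the largest gene in the sums 6 and 0 with 1.23. WNK4, a kinase that controls salt transporters, rose by 2.79, SGK1 by 2.51 and PER1 by 1.49. WNK4 and SGK1 were at 0.546 and 0.44 FPKM with DMSO, so they passed the filter only because they rose. With no filter all 14 genes were tested, with 4 called higher and 1 lower and a median of 0.62. SGK1, PER1 and TSC22D3 are also in the glucocorticoid list.

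Of 18 progestin-induced genes, 12 were tested, 2 were called higher, 1 was called lower, and the median was 0.01. SGK1 and FOXO1, a factor of the decidual response that rose by 1.35, were higher, and FKBP5 was lower. Of 30 estrogen-induced genes, 19 were tested, 2 were called higher and 6 lower, with a median of -0.11. The excess of lower calls turned to 8 higher and 4 lower with equal FPKM sums, and to 6 and 5 without the largest gene in the sums. AREG, an EGFR ligand, and EGR3, an early response factor, rose by 3.93 and 3.12 from DMSO means below 1 FPKM. Both passed the filter only through their BCT samples, and ELOVL2, named next, only through its DMSO samples. MYC, the growth-promoting factor, fell by 2.18, ELOVL2, a fatty acid elongase, by 1.74 and CTSD, a lysosomal protease, by 1.69. The receptors named by these lists, PGR, ESR1 and ESR2, were all below 0.3 FPKM.

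**Figure D3:**
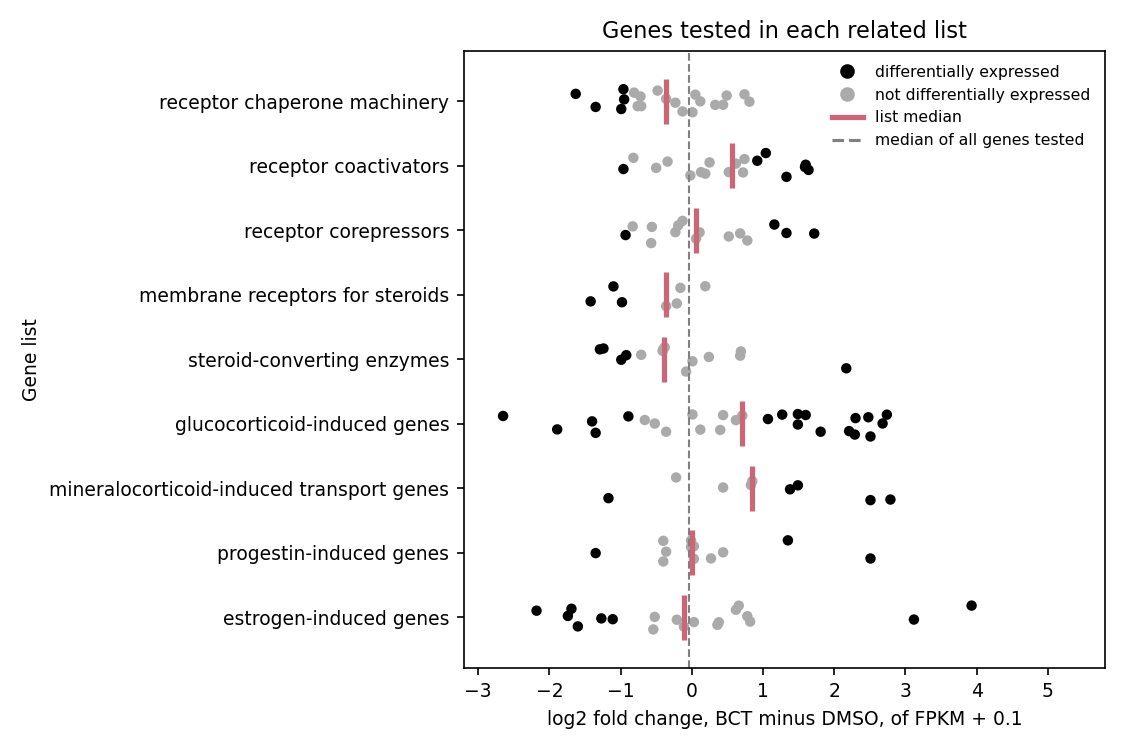
Log2 fold change (BCT minus DMSO) of each tested gene in 9 related lists, with one point a gene, black where differentially expressed, and a bar at the list median; the dashed line is the median of all tested genes at -0.038. The glucocorticoid-induced genes spread from -2.65 for KLF15 to 2.74 for BIRC3, and the chaperone genes lie between -1.63 and 0.81.

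The genes whose pattern was most like that of a receptor were found by Pearson correlation of log2(FPKM + 0.1) over the 6 samples. For NR3C1 these were ATXN7L1 (r = 0.9999), NFU1 (r = 0.9998) and INPP1 (r = 0.9998), and 1444 of 12728 genes were above 0.99. For NR3C2 they were XPO4 (r = 0.9993), ERCC6L2 (r = 0.9984) and EP400NL (r = 0.9984), and 189 genes were above 0.99. With 2 groups of 3 samples, such a value mostly reflects the difference between the groups, and all genes share the same libraries. The closest listed neighbours were taken for the 2 receptors tested. ARHGAP26, 48923 bases from NR3C1, was at 1.93 ± 0.214 with DMSO and 2.46 ± 0.0835 FPKM with BCT (SD, n = 3 each), or 0.34 on the log2 scale against 2.22 for NR3C1. MIR5197 beside NR3C1 and MIR4799 beside NR3C2 were listed at 0 in all samples, and LOC101927849, on the other side of NR3C2, was at most 0.019 FPKM.

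The label of the cells was checked against cell type markers. Of 12 prostate epithelial markers, 11 were above 1 FPKM in every sample, and KLK3, the gene of prostate-specific antigen, fell from 8.73 ± 0.911 to 1.05 ± 0.238 FPKM (SD, n = 3 each). SLC45A3 and STEAP2, both androgen-induced, fell by 2.35 and 1.65, while the keratins KRT18 and KRT8 rose by 1.72 and 1.17. The 7 stromal markers summed to 6.18 to 7.07 FPKM with DMSO and 18.9 to 21.7 FPKM with BCT, most of it from ACTA2 and COL1A1, which rose by 1.83 and 1.95. The stromal markers COL1A2, COL3A1, DCN and PDGFRB were below 0.2 FPKM in every sample, and LUM went the other way, from 1.01 ± 0.0746 to 0.574 ± 0.0564 FPKM (SD, n = 3 each), too low to be tested. The 5 immune markers summed to 2.36 to 3.29 and 5.46 to 8.75 FPKM, mostly from CD68, which rose by 1.31, and PTPRC, the pan-leukocyte gene, was at most 0.036 FPKM. The stromal and immune sums were higher in all BCT samples than in all DMSO samples, as NR3C1 was, and their part in its rise was not tested. The 4 endothelial markers summed to 0.022 to 0.067 FPKM with DMSO and 0.048 to 0.081 FPKM with BCT, in overlapping groups.

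**Figure D4:**
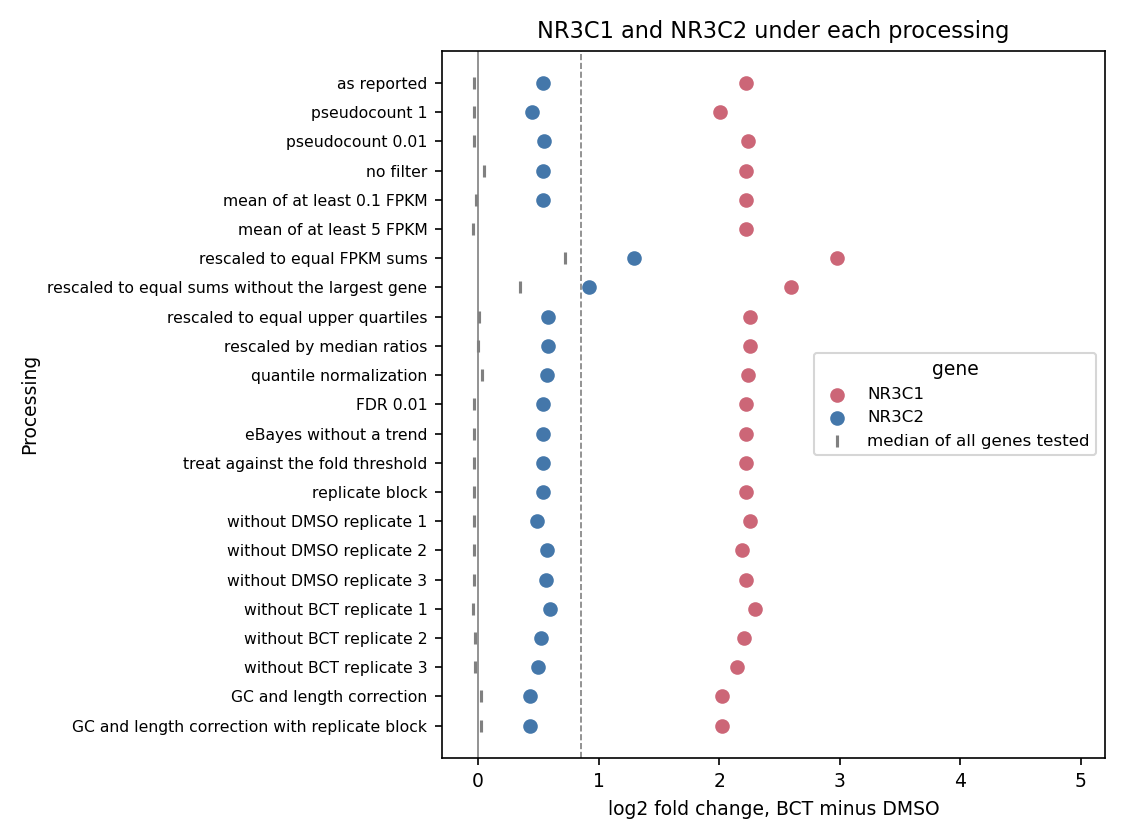
Log2 fold change (BCT minus DMSO) of NR3C1 and NR3C2 under each way of processing the values, with the median of all tested genes as a tick and the fold threshold of 0.85 as a dashed line; NR3C2 was not tested with a mean of at least 5 FPKM. NR3C1 stays between 2.01 and 2.98, and NR3C2 crosses the threshold only with the 2 scalings by FPKM sum.

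The receptor genes have long and AT-rich transcripts, with 6778 bases and 40.4% GC for the main transcript of NR3C1 and 5792 bases and 44% for NR3C2, beside medians of 3180 bases and 48.4% over the tested genes. Over all genes the difference between BCT and DMSO moved with GC content and length, with a trend of 0.20 at NR3C1 and 0.11 at NR3C2 on the log2 scale. After the trend was subtracted, a correction chosen after seeing the data, NR3C1 was at 2.02 and still called, and NR3C2 was at 0.43.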

How the data were processed

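RNA of 3 DMSO and 3 BCT samples of 22RV1 cells was sequenced from TruSeq v2 libraries. The authors trimmed the reads with Trimmomatic 0.38 (submitters' processing notes), aligned them to hg19 with HISAT2 and assembled them with StringTie. The submitters' notes also list CASAVA and HTSeq, and the annotation is not given in the sources used here. The authors deposited FPKM values for 26255 genes in each sample. Read counts were not used here, and the depth of a sample is given only relative to another. FPKM values were used as deposited, log2(FPKM + 0.1) was taken, and the 12729 genes averaging 1 FPKM or more were fitted in limma 3.58.1 (R 4.3.3, eBayes, trended variance, Benjamini-Hochberg). The average was over all 6 samples, so a gene below 1 FPKM in 1 group could pass only through the group where it was higher. Calls needed a log2 fold change beyond 0.85 in size and an FDR under 0.05. The methods name no gene-level test. Starts in the files count from 0, so 1 was added.

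The receptors and the gene lists, written from general knowledge, were chosen with earlier results of these data known. Named were the receptors, all chaperone genes, at most 3 called genes in each direction of every other list (or, with none called, its 2 highest), and the 3 most similar genes and the neighbours of each receptor tested. A gene that this rule covers and further nuclear receptors are not reported here. The fit was tested on simulated data. Alternatives covered the pseudocount, filters, 5 scalings, FDR, variance model, replicate block and each sample left out, and, after seeing the data, a loess correction (span 0.5) for GC content and length, available for 97.4% of tested genes.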

Additional observations from a re-analysis of the deposited data

How the results depend on the processing

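NR3C1 was called under all 22 alternatives, at 2.01 to 2.98, and at 2.15 to 2.30 with any 1 sample left out. The number of receptors called was 1 and became 2 with equal FPKM sums and with those sums without the largest gene, where NR3C2 was called at 1.29 and 0.92; leaving out 1 sample gave 0.49 to 0.60 for NR3C2, which was not called. The rise in the NR3C1 share of 26.4 percentage points ranged from 25.5 to 28.0 without 1 sample and was 25.8 without the estrogen receptors in the sum. Deviations of same-numbered samples correlated at 0.033 to 0.116, and those of differently numbered samples at -0.115 to 0.074. With only 3 same-numbered pairs, these values cannot tell whether the samples were paired. With the replicate block NR3C1 was at 2.22, NR3C2 at 0.54 and the share at 26.4 (exact sign-flip p = 0.25, the smallest possible), 1 receptor was called, and over all genes 4033 were called in place of 4027.

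Rescaling to equal sums moved the split of calls from 1764 higher and 2263 lower to 5614 and 668, and to 3370 and 1208 without the largest gene. With a test against the fold threshold itself 2425 genes were called. Directions turned with equal sums for HSP90AA1 (0.06), HSP90AB1 (0.01), DNAJA1 (0.54), DNAJB1 (0.63), PTGES3 (0.29), PPP5C (0.41), ST13 (0.05) and ESRRA (0.04), and for the medians of membrane receptors (0.39), chaperones (0.41), converting enzymes (0.37), estrogen-induced genes (0.64) and prostate markers (0.40). Without the largest gene they turned for DNAJA1 (0.16), DNAJB1 (0.25), PPP5C (0.03) and the medians of membrane receptors (0.02), chaperones (0.03), estrogen-induced genes (0.27) and prostate markers (0.02). DNAJA1 was at 0.09 after quantile normalization and DNAJB1 at 0.0024 after GC and length correction, with or without the block. STUB1 was at -0.01 without DMSO replicate 2 and -0.02 without BCT replicate 1. The median of progestin-induced genes was -0.01 with a mean of at least 5 FPKM and -0.01 to -0.02 without BCT replicate 1 or 3, and that of estrogen-induced genes was 0.03 with no filter and 0.36 with a mean of at least 5 FPKM. HSPA1A lost its call without BCT replicate 3, at -0.79, and AHSA1 gained one without BCT replicate 1, at -0.87. Of 1582 values computed for other named genes, 47 lost and 19 gained a call. The cause of these changes beyond the scaling itself was not tested. FPKM without read counts gives no counting error, which limits PGR, ESR1 and ESR2 most.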
